A study of Mus musculus with 20 samples.

Results

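Messenger RNAs bound to ribosomes were compared between late-symptomatic brains of mice with spinal muscular atrophy (SMA) and of control littermates. The comparison used 6 polysomal libraries of the 20 in the series, 3 per genotype, each from 1 brain taken at postnatal day 7. Of the 45700 genes in the deposited table, 14259 had a mean of at least 1 FPKM over these 6 libraries and a value above 0 in each of them, and 13004 of those were protein-coding. SMA mice of the "Taiwanese" line (Smn-/-; SMN2tg/0) lacked murine Smn and carried a human SMN2 transgene on 1 allele. Controls were heterozygous littermates (Smn-/+; SMN2tg/0) with a normal appearance, so both genotypes carried the transgene and both were on a congenic FVB background. No treatment is named in the labels, whole brains were used, and the human transgene was the only source of full-length SMN protein in the SMA mice. The rest of the series held total RNA from the same 2 genotypes at day 7 and both kinds of RNA at day 5, the early-symptomatic stage, with 2 mice per genotype.

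Ribosomes that translate the same mRNA together form a polysome, which sediments deep in a sucrose gradient, so RNA taken from the pooled polysomal fractions is a record of what a tissue is translating. SMN protein assembles the small nuclear ribonucleoproteins of the splicing machinery, and its loss kills lower motor neurons. Mice of severe lines also develop defects of vessels, glia and peripheral organs. A polysomal library, scaled to its own size, measures the share of an mRNA in the polysomal RNA. That share follows the amount of the mRNA as well as how well it is loaded with ribosomes. A change common to all polysomal mRNAs is scaled away and would not be seen here. The study reports a lower fraction of ribosomes in polysomes in late-symptomatic SMA brain, which these values cannot show. In whole brain, fewer cells of a type and less RNA per cell cannot be told apart.

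Values are in FPKM, a fragment count divided by transcript length and by library size, and are listed below in the order of replicates 1, 2 and 3. A gene was called when the unadjusted p of limma's moderated test on log2(FPKM + 0.1) was under 0.05, the threshold that the study used, and the adjusted p is that of Benjamini and Hochberg over the 14259 genes. Fold changes are differences of log2(FPKM + 0.1) with their standard errors (SE), n = 3 against 3, and they understate the change of weakly expressed genes. The table holds no read counts, so the depth behind a value is unknown. Between 14247 and 14503 genes reached 1 FPKM in a library, and Pearson correlations between libraries over the tested genes lay between 0.98579 and 0.98968 within a genotype and between 0.98193 and 0.98763 across genotypes. Neuronal marker genes summed to at least 4236 FPKM in every library, while 7 pituitary hormone and factor genes summed to at most 1.96 FPKM. The summed Y-linked transcripts Ddx3y, Eif2s3y, Kdm5d and Uty were at 0.45, 0.36 and 61.6 FPKM in the controls and at 62.8, 60.9 and 0.39 FPKM in the SMA libraries, so the sexes were not balanced. Smn1 was at 13.3, 11.9 and 12.5 FPKM in controls and 13.1, 14.2 and 13.3 FPKM in SMA (log2 fold change 0.11 ± 0.08, adjusted p = 0.651). That value pools all exons, and it does not check the genotype labels.

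Of the tested genes, 780 (5.47%) were called higher and 796 (5.58%) lower in SMA, together 1576 (11.1%), of which 1399 were protein-coding. After adjustment 42 genes (0.295%) stayed past the threshold, 27 (0.189%) higher and 15 (0.105%) lower. The median log2 fold change over the tested genes was 0.00. Among the called genes 70 moved by more than 1 on the log2 scale, 38 upward and 32 downward. The 3 SMA values lay apart from the 3 control values in 2392 genes (16.8%), above them in 8.34% and below them in 8.44%. Leaving out control replicate 1 raised the higher calls to 1226, leaving out control replicate 2 lowered them to 514, and leaving out any 1 library lowered the genes past the adjusted threshold to between 8 and 20.

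**Figure D1:**
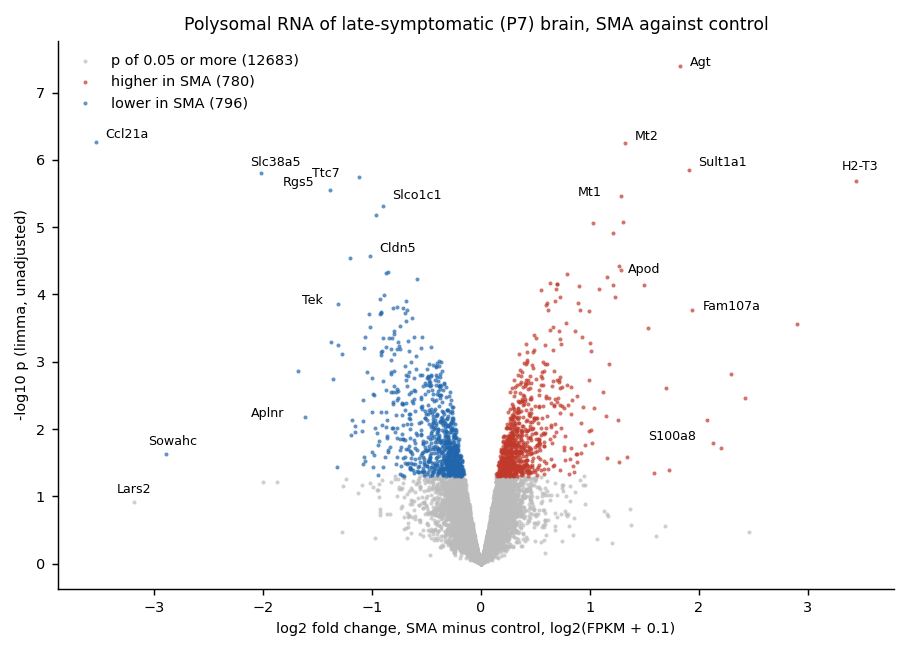
Each point is 1 of the 14259 tested genes, with the log2 fold change of SMA minus control on the x axis and the negative log10 of the unadjusted limma p on the y axis. Red points mark the 780 genes called higher, blue points the 796 called lower, and grey points those not called. Agt has the smallest p, Ccl21a the most negative fold change, and Lars2, far to the left, is not called and is high in control replicate 2 alone.

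Many vessel genes were lower on polysomes. Of 18 endothelial markers, all of them tested, 12 were called lower and 1 higher, against 5.58% and 5.47% of all tested genes, and the median log2 fold change was -0.50. Of 18 genes of the blood-brain barrier, 9 were called lower and 1 higher (median -0.32), and of 14 pericyte markers, 12 passed the filter and 7 were called lower (median -0.42). In vascular smooth muscle, 6 of 12 markers were tested and 2, Myl9 (-0.77 ± 0.11) and Acta2 (-0.46 ± 0.14), were called lower. These counts changed by at most 1.5 times when any 1 library was left out or when sex was a covariate. With a minimum mean of 5 FPKM, which leaves out many of these weakly expressed genes, the lower calls numbered 4 endothelial, 5 barrier and 3 pericyte genes. Marker lists were chosen with results of these data known.

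Endothelial receptors and junction proteins led the endothelial list. Tek, the angiopoietin receptor Tie2 (chr4:94739289-94874976, plus strand, GRCm38), was at 2.89, 3.51 and 4.26 FPKM in controls and 1.67, 1.27 and 1.17 FPKM in SMA. All 3 SMA values lay below the lowest control (log2 fold change -1.31 ± 0.19, adjusted p = 0.048). Cdh5, the VE-cadherin of endothelial junctions, was at 4.79, 4.92 and 5.65 FPKM in controls and 2.30, 2.99 and 2.71 FPKM in SMA and did not overlap either (log2 fold change -0.92 ± 0.13, adjusted p = 0.0457). Also lower were Tie1, the partner receptor of Tek (-1.02), the vascular endothelial growth factor receptors Kdr (-0.68) and Flt1 (-0.55), the adhesion proteins Pecam1 (-0.45) and Esam (-0.48), the secreted Egfl7 (-0.43), and Itm2a (-0.51). The transcription factors Erg (-0.78), Sox17 (-0.94) and Sox18 (-0.80) completed the 12, and of these only Sox17 had overlapping groups. Outside the lists, the ETS factor Ets1 was at 7.68, 8.25 and 7.62 FPKM in controls and 3.81, 4.82 and 4.16 FPKM in SMA (log2 fold change -0.87 ± 0.11, adjusted p = 0.034), and the related factor Fli1 fell by 1.02 on the log2 scale. The endothelial lectin-like receptors Cd93 (-0.89, adjusted p = 0.0437) and Clec14a (-1.06) and the prion-like gene Prnd (-1.20, adjusted p = 0.0256) were lower as well. Ly6a (Sca-1), a surface antigen of vessels and of interferon-exposed cells, was the only endothelial marker called higher, at 5.15, 5.97 and 4.85 FPKM in controls and 14.7, 11.2 and 10.4 FPKM in SMA (log2 fold change 1.16 ± 0.15, adjusted p = 0.0351).

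Transporters and tight-junction genes made up the lower part of the barrier list. Slc38a5, an amino acid transporter of the system N family (chrX:8271133-8280179, plus strand, GRCm38), was at 10.2, 11.1 and 14.6 FPKM in controls and 2.46, 3.15 and 3.00 FPKM in SMA. The SMA mean was 0.239 of the control mean, with no overlap of the groups (log2 fold change -2.02 ± 0.16, adjusted p = 0.00415). Cldn5, the main claudin of brain tight junctions (chr16:18776847-18778262, plus strand, GRCm38), was at 36.5, 34.8 and 43.1 FPKM in controls and 17.8, 21.5 and 17.2 FPKM in SMA. Here too the groups did not overlap (log2 fold change -1.01 ± 0.12, adjusted p = 0.0254). Slco1c1, which carries thyroid hormone into the brain (chr6:141524368-141570177, plus strand, GRCm38), was at 24.8, 27.2 and 25.2 FPKM in controls and 13.3, 14.9 and 13.1 FPKM in SMA (log2 fold change -0.90 ± 0.08, adjusted p = 0.00704). The monocarboxylate transporter Slc16a1 was at 25.1, 31.2 and 29.1 FPKM in controls and 16.2, 16.8 and 14.2 FPKM in SMA (log2 fold change -0.85 ± 0.10, adjusted p = 0.034). The other barrier genes called lower were the efflux pumps Abcb1a (-0.66) and Abcg2 (-0.44), the organic anion carriers Slco2b1 (-0.87) and Slc22a8 (-0.41), and Lsr of tricellular junctions (-0.29). Mfsd2a, the lysophosphatidylcholine transporter, was the 1 barrier gene called higher (0.29 ± 0.08).

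Pericytes, the contractile cells that wrap capillaries, showed the same direction in 11 of 12 tested markers. Rgs5, a regulator of G-protein signalling (chr1:169655501-169695813, plus strand, GRCm38), was at 36.9, 42.1 and 42.7 FPKM in controls and 14.9, 18.1 and 13.7 FPKM in SMA. The SMA values lay far below the lowest control value, at a mean of 0.383 of the control mean (log2 fold change -1.39 ± 0.12, adjusted p = 0.00497). Higd1b, a pericyte gene of the HIG1 domain family, was at 12.4, 10.7 and 11.9 FPKM in controls and 5.72, 6.27 and 5.81 FPKM in SMA (log2 fold change -0.96 ± 0.09, adjusted p = 0.00851). The remaining lower markers were the potassium channel pair Abcc9 (-0.80) and Kcnj8 (-0.64), the platelet-derived growth factor receptor Pdgfrb (-0.50), vitronectin Vtn (-0.35) and Cd248 (-0.33). Cox7a1, a subunit of cytochrome c oxidase that is typical of muscle-like cells, was lower too (-0.75 ± 0.13).

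Angiogenic genes did not share one direction. Of 15 tested members of that list, 4 were called higher and 3 lower, against 5.47% and 5.58% of all tested genes, with a median of 0.10. Aplnr, the apelin receptor of venous and sprouting endothelium, was at 10.2, 10.1 and 19.9 FPKM in controls and 3.02, 8.36 and 2.67 FPKM in SMA. SMA replicate 2 came close to the lowest control, and the fold change had a large error (log2 fold change -1.61 ± 0.44, adjusted p = 0.25). Its ligand Apln was called higher (0.37 ± 0.12), as were Angpt2, an antagonist of Tek signalling (0.68 ± 0.20), the fenestration protein Plvap (0.24 ± 0.10) and Igfbp3, a carrier of insulin-like growth factor (log2 fold change 0.70 ± 0.09, adjusted p = 0.0384). Eng (-0.47) and Unc5b (-0.46) were called lower. Without SMA replicate 1 the list had 2 higher calls.

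Connective tissue genes went in both directions, and of all tested genes 5.58% were called lower and 5.47% higher. Among 13 tested markers of fibroblasts and meninges, 5 were called lower, namely the collagens Col1a1 (-0.72) and Col1a2 (-0.51) and the small proteoglycans Lum (-0.76), Dcn (-0.48) and Ogn (-0.54). Slc6a13, a GABA transporter of the meninges (0.63), and Aldh1a2, which makes retinoic acid (0.58), were called higher. In the list of basement membrane and matrix genes 7 of 25 were lower, among them Fn1 (-0.67), Lama4 (-0.55), Bgn (-0.51), the prolyl hydroxylase subunit P4ha1 (-0.37) and the collagen chaperone Serpinh1 (-0.44), and 2 were higher, Sparc (0.39) and the related subunit P4ha2 (0.47). Without SMA replicate 2 that list had 11 lower calls and 1 higher, and it also had 1 higher call without control replicate 2 or control replicate 3. Ccl21a, a chemokine of lymphatic endothelium, had the most negative change of all tested genes, at 6.51, 8.45 and 7.96 FPKM in controls and 0.67, 0.73 and 0.36 FPKM in SMA (log2 fold change -3.53 ± 0.24, adjusted p = 0.00271). It belongs to a cluster of near-identical copies among which reads may be divided, so the assignment to this copy is uncertain.

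**Figure D2:**
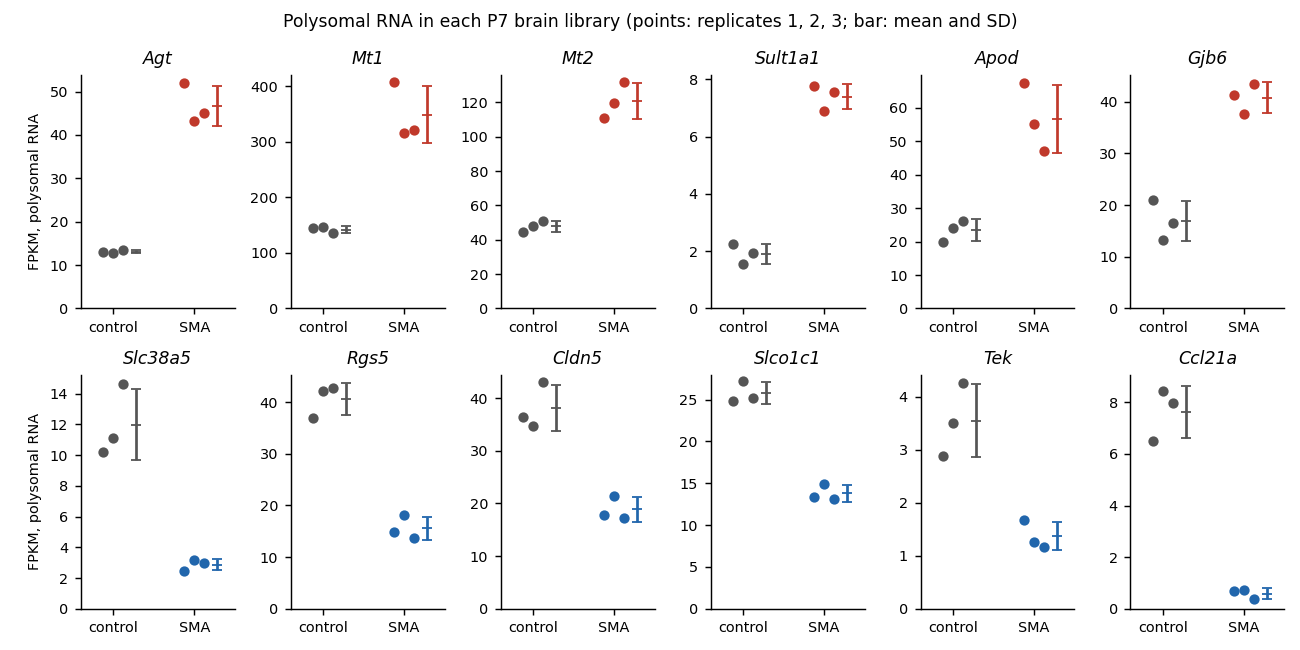
FPKM in polysomal RNA on the y axis for 12 genes, with 1 point per library, grey for the 3 controls and coloured for the 3 SMA brains, and the mean with its SD beside the points. In each of the 12 panels the SMA points lie wholly above (upper row) or wholly below (lower row) the control points.

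Astrocytic mRNAs moved upward. Of 14 markers, 5 were called higher and none lower by the limma test (5.47% of all tested genes were called higher), and the median was 0.23. Gjb6, the connexin 30 of astrocyte gap junctions, was at 21.01, 13.2 and 16.5 FPKM in controls and 41.2, 37.6 and 43.5 FPKM in SMA (log2 fold change 1.29 ± 0.16, adjusted p = 0.034). Aldoc, the brain aldolase, was at 154.3, 139.8 and 156.8 FPKM in controls and 291.7, 255.8 and 236.2 FPKM in SMA. Groups lay well apart in both genes (log2 fold change 0.79 ± 0.10, adjusted p = 0.034 for Aldoc). Smaller rises were called for the growth factor receptor Fgfr3 (0.48), glutamine synthetase Glul (0.49) and the filament protein Gfap (0.40), whose SMA replicate 3, at 61.86 FPKM, lay just above the highest control, at 61.74 FPKM. A further 3 genes known from astrocytes but on no list passed the adjusted threshold, Hepacam (0.55), the proline oxidase Prodh (1.23) and Scrg1 (0.61).

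Choroid plexus, the epithelium that makes cerebrospinal fluid, had all 12 markers above 0 in fold change, with 5 called higher (5.47% of all tested genes were) and a median of 0.44. With a minimum mean of 5 FPKM the higher calls numbered 2. Ttr, the thyroid hormone carrier transthyretin, was at 564.0, 508.6 and 455.3 FPKM in controls and 1092, 981.0 and 814.2 FPKM in SMA. The lowest SMA library stood above the highest control (log2 fold change 0.91 ± 0.14, adjusted p = 0.0501). Clic6 (0.93), the water channel Aqp1 (0.83), the folate receptor Folr1 (0.54) and the transcription factor Otx2 (0.55) were the others. Summed over the list, markers reached 519 to 632 FPKM in controls and 891 to 1191 FPKM in SMA. How much choroid plexus each dissected brain held was not tested. Of 8 ependymal genes, 2 were called higher, Mia (0.41) and Ccdc153 (0.41), and 1 call was left without any 1 of the libraries other than control replicate 1.

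Microglia showed unequal changes within 1 marker list, and of all tested genes 5.47% were called higher and 5.58% lower. The complement genes C1qa (0.47), C1qb (0.73) and C1qc (0.57) and the protease Ctss (0.45) were called higher, the lysosomal Cd68 was called lower (-0.34), and the median of the 15 markers was -0.03. C1qb was at 12.2, 10.5 and 10.6 FPKM in controls and 23.9, 17.6 and 14.8 FPKM in SMA, highest in SMA replicate 1. The same library held most of the neutrophil signal. S100a8 was at 1.30, 2.56 and 1.62 FPKM in controls and 28.3, 3.35 and 5.39 FPKM in SMA (log2 fold change 2.13 ± 0.70, adjusted p = 0.338) and S100a9 at 1.34, 2.11 and 1.85 FPKM in controls and 21.9, 3.75 and 5.36 FPKM in SMA (log2 fold change 2.07 ± 0.57, adjusted p = 0.255). Both encode calprotectin, and the stefins Stfa2 (2.21), Stfa2l1 (2.43) and Gm5483 (2.30), which neutrophils also express, were highest in that library too. Of 12 neutrophil genes 3 passed the filter, with 2 called higher and 1 without control replicate 1, and the stefins passed only through their SMA values and resemble each other closely, so their counts are uncertain. Among 7 tested erythroid genes Hbb-bt (-0.62) and Hba-a2 (-0.45) were called lower, with 4 called lower without SMA replicate 1 and 1 without control replicate 2, control replicate 3, SMA replicate 2 or SMA replicate 3.

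Neuronal and oligodendroglial lists had few calls, and 11.1% of all tested genes were called. None of 11 pan-neuronal and none of 10 excitatory markers was called by limma at p under 0.05 in either direction, with medians of 0.01 and -0.10. The pan-neuronal sum was 4396 to 4625 FPKM in controls and 4236 to 4982 FPKM in SMA. Of 11 inhibitory markers Dlx6 (0.39) was called higher. Pcp2, a Purkinje cell gene, ranged from 2.76 to 23.61 FPKM in controls and from 4.08 to 89.27 FPKM in SMA, with wholly overlapping groups (log2 fold change 1.38 ± 1.16, adjusted p = 0.693). The 13 tested myelin genes all had positive fold changes (median 0.24), yet none was called, and their sum spanned 213 to 520 FPKM within the controls alone. In oligodendrocyte precursors Cspg4 was called higher (0.36) and Gpr17 lower (-0.38) of 11 markers.

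**Figure D3:**
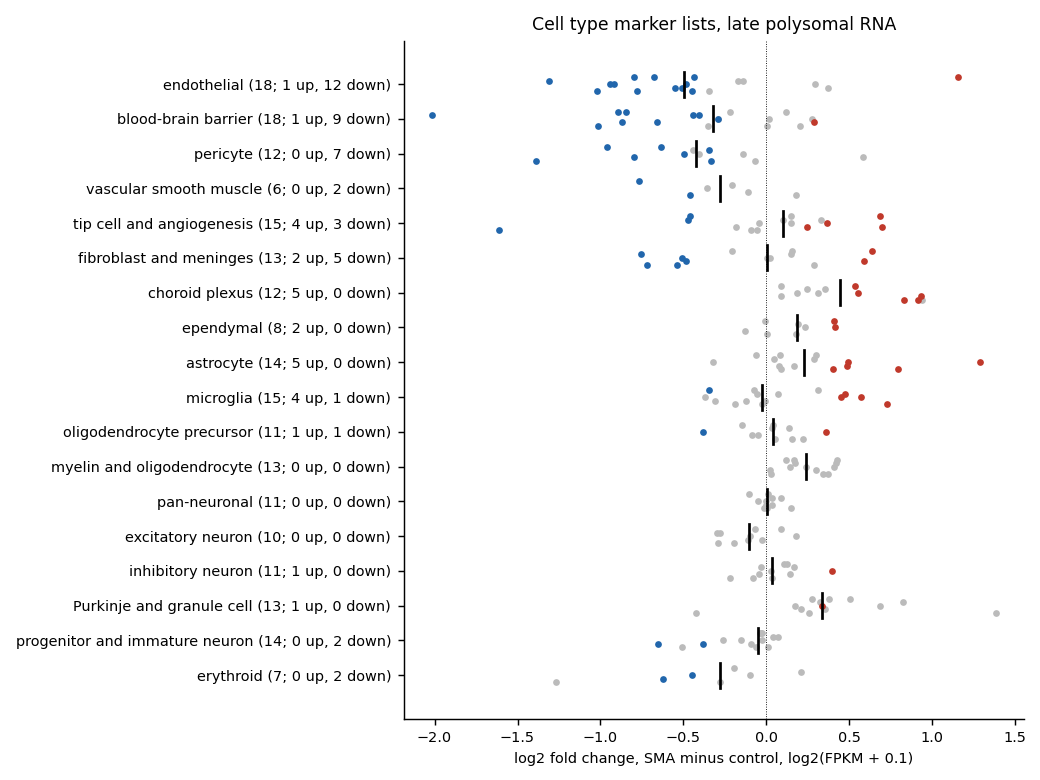
Log2 fold change of SMA minus control on the x axis for the tested members of 18 cell type lists, 1 point per gene, red when called higher, blue when called lower and grey when not called. Black bars mark list medians, and the labels give the tested members and the calls. Endothelial, barrier and pericyte lists lie mostly to the left and choroid plexus mostly to the right, while the pan-neuronal, excitatory and inhibitory lists centre near 0 and the Purkinje and granule cell list has a median of 0.34 with few calls.

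Several stress-hormone and metal-responsive genes rose. Agt, the angiotensinogen precursor that astrocytes make in brain (chr8:124556534-124569706, minus strand, GRCm38), was at 13.0, 12.7 and 13.5 FPKM in controls and 52.0, 43.2 and 45.0 FPKM in SMA. The SMA mean was 3.57 times the control mean, and no other gene had a smaller p (log2 fold change 1.83 ± 0.09, adjusted p = 5.68e-04). Of 24 glucocorticoid-induced genes 19 were tested, 6 were called higher (5.47% of all tested genes were) and none lower by limma, with a median of 0.16. Sult1a1, a phenol sulfotransferase, was at 2.25, 1.54 and 1.94 FPKM in controls and 7.75, 6.89 and 7.56 FPKM in SMA (log2 fold change 1.91 ± 0.15, adjusted p = 0.00415). Fam107a, an actin-binding stress gene, was at 3.91, 3.51 and 2.74 FPKM in controls and 21.6, 9.85 and 10.7 FPKM in SMA. SMA replicate 1 was the highest of the 3, and the groups did not overlap (log2 fold change 1.94 ± 0.29, adjusted p = 0.0501). The chaperone Fkbp5 (0.49), the zipper protein Tsc22d3 (0.18) and the phagocytic receptor Mertk (0.89) rose by less, and Cdkn1a, described below, was the other. The number of higher calls in that list changed by at most 1.5 times under every alternative run. Apod, a lipocalin of glia, was at 19.8, 24.1 and 26.3 FPKM in controls and 67.6, 55.1 and 47.2 FPKM in SMA (log2 fold change 1.27 ± 0.15, adjusted p = 0.0318).

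Metallothioneins bind zinc and copper, and their genes lie side by side on chromosome 8. Mt1 (chr8:94179082-94180327, plus strand, GRCm38) was at 144.1, 146.1 and 135.6 FPKM in controls and 407.2, 316.0 and 321.2 FPKM in SMA. Mt2 (chr8:94172664-94173568, plus strand, GRCm38) was at 44.8, 48.0 and 51.2 FPKM in controls and 110.8, 119.8 and 131.9 FPKM in SMA. Both rose by a similar amount (log2 fold change 1.28 ± 0.11, adjusted p = 0.00555 for Mt1 and log2 fold change 1.33 ± 0.09, adjusted p = 0.00271 for Mt2), and the brain form Mt3, their neighbour, was not called (0.12 ± 0.16, adjusted p = 0.811). These 3 genes are neighbours, and the 150 bases before the RefSeq start of each are shown. For Mt1 and Mt2 the RefSeq start differs from the start of the coordinates given above. Capitals mark the core of the metal response element (TGCACNC or TGCGCNC, either strand).
Mt1: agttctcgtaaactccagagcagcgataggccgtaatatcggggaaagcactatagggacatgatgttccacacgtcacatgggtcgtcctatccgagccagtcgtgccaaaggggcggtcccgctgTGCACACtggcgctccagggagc
Mt2: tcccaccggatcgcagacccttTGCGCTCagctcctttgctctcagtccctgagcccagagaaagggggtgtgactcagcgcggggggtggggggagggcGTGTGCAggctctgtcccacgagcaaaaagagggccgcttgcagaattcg
Mt3: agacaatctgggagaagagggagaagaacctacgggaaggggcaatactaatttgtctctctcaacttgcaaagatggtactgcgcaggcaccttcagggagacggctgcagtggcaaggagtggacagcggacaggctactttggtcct
The sequences are RefSeq promoter windows of GRCm38.p6, plus strand, at chr8:94178939-94179088, chr8:94172468-94172617 and chr8:94152457-94152606. Over the whole window from 250 bases before to 50 bases after the start, the core was found at 3 positions in Mt1, 4 in Mt2 and 1 in Mt3. Of 32841 promoter windows of that length, 25.7% held it at least 1 time and 1.97% at 3 or more positions. A match of letters is not evidence that a factor binds there.

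Growth arrest and amino acid stress genes rose in part. Cdkn1a, the p21 inhibitor of cyclin-dependent kinases, was at 13.2, 13.8 and 15.4 FPKM in controls and 23.3, 24.4 and 21.1 FPKM in SMA (log2 fold change 0.70 ± 0.09, adjusted p = 0.0367). Of 20 tested p53 targets 6 were called higher, against 5.47% of all tested genes, and none lower by limma, with a median of 0.05. With a minimum mean of 5 FPKM 2 were called higher. Eda2r, the receptor of ectodysplasin A2, showed the largest change among them (1.54 ± 0.25). Its control mean was under 1 FPKM, so it passed the filter only through its SMA values. The others besides Cdkn1a were Pmaip1 (0.50), Perp (0.43), Phlda3 (0.39) and Sesn2 (0.29). In the list of the integrated stress and unfolded protein responses 8 of 26 were called higher and 3 lower (median 0.05), against 5.47% and 5.58% of all tested genes. The higher ones were the glutathione-degrading Chac1 (0.86), the factor Atf5 (0.31), the serine and one-carbon enzymes Psat1 (0.26), Psph (0.43), Shmt2 (0.25) and Mthfd2 (0.46), besides Herpud1 (0.25) and Sesn2. The lower ones were the endoplasmic reticulum genes Xbp1 (-0.20), Pdia4 (-0.23) and Pdia6 (-0.20). The 8 higher calls fell to 5 without control replicate 2, to 5 without SMA replicate 2 and to 4 without SMA replicate 3, and the 3 lower calls ranged from 1, without control replicate 3, SMA replicate 1 or SMA replicate 2, to 5, without SMA replicate 3.

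Among heat shock chaperones 3 of 14 were called lower, Hsph1 (-0.46), Hspa4 (-0.29) and Hspd1 (-0.19), and Dnajb1 was called higher (0.17). Of all tested genes 5.58% were called lower and 5.47% higher. Cirbp, a cold-inducible RNA-binding protein, was at 144.1, 123.4 and 153.8 FPKM in controls and 218.2, 233.2 and 220.3 FPKM in SMA (log2 fold change 0.68 ± 0.10, adjusted p = 0.0464). In polyamine metabolism 3 of 10 genes were called higher, against 5.47% of all tested genes, and all 3 belong to breakdown. Smox, spermine oxidase, was at 18.9, 15.1 and 14.1 FPKM in controls and 39.4, 38.7 and 33.2 FPKM in SMA (log2 fold change 1.21 ± 0.12, adjusted p = 0.0125). Sat1 (0.27) and Paox (0.30) changed by far less, and the list had 1 higher call without SMA replicate 1 or without SMA replicate 3. The glutathione transferase Gstm1 (0.63, adjusted p = 0.0367) rose as well.

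Lipid genes had small changes in both directions, and of all tested genes 5.58% were called lower and 5.47% higher. Of 24 tested genes of cholesterol synthesis and uptake 4 were called lower and none higher by limma, Hmgcs1 (-0.31), Idi1 (-0.28), Mvd (-0.24) and Nsdhl (-0.17), all by small amounts. With sex as a covariate or the replicate block the list had 1 lower call, and without SMA replicate 1 or SMA replicate 2 it had 2. In the lipoprotein list Apod, Apoc1 (0.65), Apoe (0.38) and Abcg1 (0.22) of 12 were higher, and Pltp (-0.41) and Lpl (-0.26) lower, of which 1 call stayed without any 1 of control replicates 1 and 2 and SMA replicates 1 and 3. Apoe, the main lipid carrier of astrocytes, was at 1075, 1020 and 1040 FPKM in controls and 1563, 1244 and 1294 FPKM in SMA.

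Genes of the translation machinery are read here against the 11.1% of all tested genes that were called. Of 82 cytosolic ribosomal protein genes 1 was called by limma, Rpl28 (0.21 ± 0.08), and the median was -0.04. Of 48 translation factors 4 were higher, led by Eif4ebp1, the repressor of cap-binding factor eIF4E, at 2.23, 1.5 and 2.11 FPKM in controls and 2.93, 3.80 and 3.55 FPKM in SMA (log2 fold change 0.80 ± 0.18, adjusted p = 0.159). Eef1a1, the elongation factor, was at 2178, 1592 and 1885 FPKM in controls and 1768, 2047 and 2009 FPKM in SMA, with overlapping groups (log2 fold change 0.05 ± 0.15, adjusted p = 0.923). Among 37 aminoacyl-tRNA synthetases the cytosolic Yars (0.26), Mars (0.20) and Gars (0.18) were called higher and the mitochondrial Mars2 (-0.30) and Nars2 (-0.20) lower. The 3 higher synthetase calls became 1 without control replicate 2 or SMA replicate 2 and 6 without SMA replicate 1, and the 2 lower calls became 4 without control replicate 3 and 1 without any 1 of the SMA replicates. Higher calls of translation factors numbered 2 without control replicate 3 or SMA replicate 2. Lars2 was at 11.6, 3652 and 44.7 FPKM in controls and 25.8, 12.2 and 8.03 FPKM in SMA, so control replicate 2 alone set its fold change, which was not called (adjusted p = 0.578). Of 17 genes of the SMN complex and Sm core, Snrpb was called higher (0.27), and the U2 protein gene Snrpa1, on no list, was at 23.4, 23.2 and 29.1 FPKM in controls and 43.3, 39.6 and 41.8 FPKM in SMA (log2 fold change 0.73 ± 0.10, adjusted p = 0.0439). None of 38 proteasome genes was called by limma at p under 0.05. Uba6, an activating enzyme of ubiquitin, was lower at 8.56, 9.86 and 9.33 FPKM in controls and 6.81, 7.43 and 6.51 FPKM in SMA (log2 fold change -0.41 ± 0.09, adjusted p = 0.159). Of 78 respiratory chain genes 1 was called higher, Ndufv1 (0.33), and 2 lower, Ndufs1 (-0.17) and Cox7a1, with a median of 0.01, and the lower calls fell to 1 without any 1 of control replicates 1, 2 and 3 or SMA replicate 2.

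**Figure D4:**
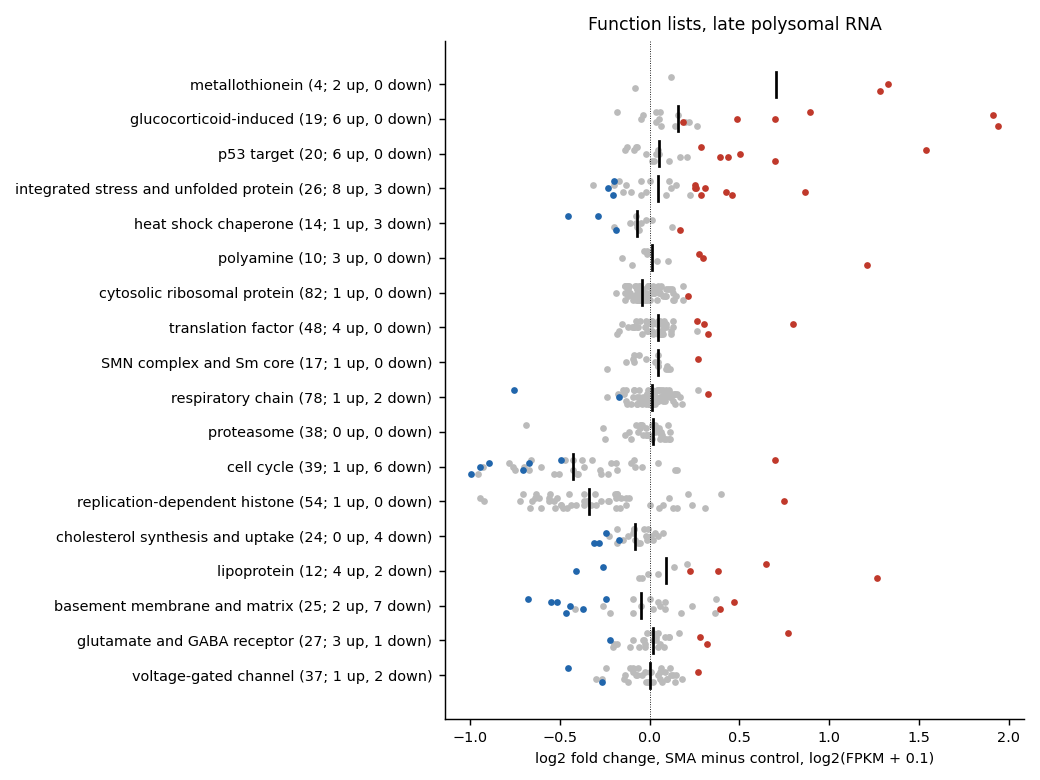
Log2 fold change of SMA minus control on the x axis for the tested members of 18 function lists, drawn as for the cell types. Fam107a and Sult1a1 of the glucocorticoid-induced list, Eda2r of the p53 targets and Mt1 and Mt2 lie above 1, cell cycle and histone lists lie left of 0 with few calls, and ribosomal protein genes cluster around their median of -0.04.

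Proliferation genes leaned downward with wide scatter, and of all tested genes 5.58% were called lower and 5.47% higher. Of 39 tested cell cycle genes 35 had negative fold changes (median -0.42), but 6 were called lower, Ccnb2, Bub1, Kif11, Nusap1, Tpx2 and Birc5, between -0.99 and -0.49, and 1, Cdkn1a, higher. Cdk1, the mitotic kinase, was at 7.62, 10.7 and 14.6 FPKM in controls and 8.90, 8.30 and 4.01 FPKM in SMA, and SMA replicate 3 was the lowest library (log2 fold change -0.66 ± 0.33, adjusted p = 0.517). With sex as a covariate 29 of the 39 were called lower. Leaving out 1 library gave between 0 lower calls, without control replicate 2, and 18, without SMA replicate 2. Replication-dependent histones leaned the same way, with 43 of 54 tested genes negative (median -0.34), none called lower and Hist3h2ba called higher (0.75), and reads may be divided between their near-identical copies. In the progenitor list Fabp7, the fatty acid binding protein of radial glia, was at 1228, 1238 and 1523 FPKM in controls and 805.2, 908.4 and 810.0 FPKM in SMA (log2 fold change -0.66 ± 0.12, adjusted p = 0.1), and Hes1 was lower by less (-0.38), with 1 of the 2 calls left without control replicate 2, control replicate 3 or SMA replicate 1.

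Genes of neuronal signalling had calls in both directions, and 11.1% of all tested genes were called. In glutamate and GABA receptors 3 of 27 were higher, Grin2c (0.77), Grin2d (0.32) and Grik5 (0.28), and Grin2b was lower (-0.22), while leaving out 1 library gave between 0 higher calls, without control replicate 3, and 5, without control replicate 1. Of 37 voltage-gated channel genes Scn8a (-0.45) and Kcnj3 (-0.26) were lower and Kcnc4 higher (0.27), with 6 lower calls without control replicate 3 and 4 with the replicate block. In 25 genes of vesicle release 1, Vamp1 (0.47), was called higher, and none of 19 neurofilament and tubulin genes was called by limma. Of 14 tested genes that modify the severity of SMA or act on actin, Pls3 (-0.25) and Rock1 (-0.31) were called lower, with 1 call left without control replicate 2 or SMA replicate 3.

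Polysomal changes were then set beside those in total RNA of the same stage. For total RNA the study pooled the fractions of the gradient profile, so it holds the polysomal RNA as a part. A difference in loading is therefore damped in this comparison. A change in ribosome loading would appear as a polysomal fold change that departs from the total one, tested as the interaction of genotype and fraction over 12 libraries. Of 14348 genes 279 (1.94%) passed p under 0.05, 145 (1.01%) with the higher change on polysomes and 134 (0.934%) with the lower. With the replicate number as a block, which pairs the polysomal and total libraries, 590 genes (4.11%) passed, 306 (2.13%) higher and 284 (1.98%) lower. None passed the adjusted threshold in either fit. Leading vessel and stress genes went in the same direction in both fractions. Slc38a5 changed by -2.02 on polysomes and -1.67 in total RNA, Rgs5 by -1.39 and -1.23, Cldn5 by -1.01 and -1.03, Agt by 1.83 and 1.69, Mt1 by 1.28 and 1.24, and Apod by 1.27 and 1.26. Median changes of the endothelial list were -0.50 in both fractions, those of the pericyte list were -0.42 on polysomes and -0.34 in total RNA, those of the barrier list -0.32 and -0.18, and those of vascular smooth muscle -0.28 and -0.17. The 82 ribosomal protein genes had a median change of -0.04 on polysomes and 0.10 in total RNA. Whether these 2 medians differ was not tested. In the fit without the block, 1 of the 82 passed p under 0.05 with the lower change on polysomes and none with the higher. Of all tested genes 0.934% passed with the lower change. In the blocked fit, 7 of the 82 passed with the lower change on polysomes (1.98% of all tested genes did) and none with the higher.

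A few called genes passed the interaction test at the unadjusted threshold. Ttc7 was at 9.54, 8.35 and 8.99 FPKM in controls and 4.05, 3.99 and 4.19 FPKM in SMA on polysomes (log2 fold change -1.12 ± 0.09, adjusted p = 0.00415) and differed by 0.87 in total RNA, an interaction of -1.99 (adjusted p = 1). The stress kinase Map3k5 was at 7.81, 8.48 and 8.58 FPKM in controls and 4.60, 5.46 and 5.29 FPKM in SMA on polysomes (log2 fold change -0.69 ± 0.10, adjusted p = 0.0464), against -0.16 in total RNA. Also lower on polysomes but not in total RNA were the nuclear pore gene Ahctf1 (-0.49 and 0.08), the sheddase Adam17 (-0.42 and 0.12) and the lymphotoxin receptor Ltbr (-0.43 and 0.33). Higher on polysomes were Ptges, the prostaglandin E synthase (0.54 and -0.36), the adhesion adaptor Fblim1 (0.73 and 0.02), the collagen-folding Fkbp10 (0.28 and -0.49) and Tbrg4 (0.24 and -0.28).

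**Figure D5:**
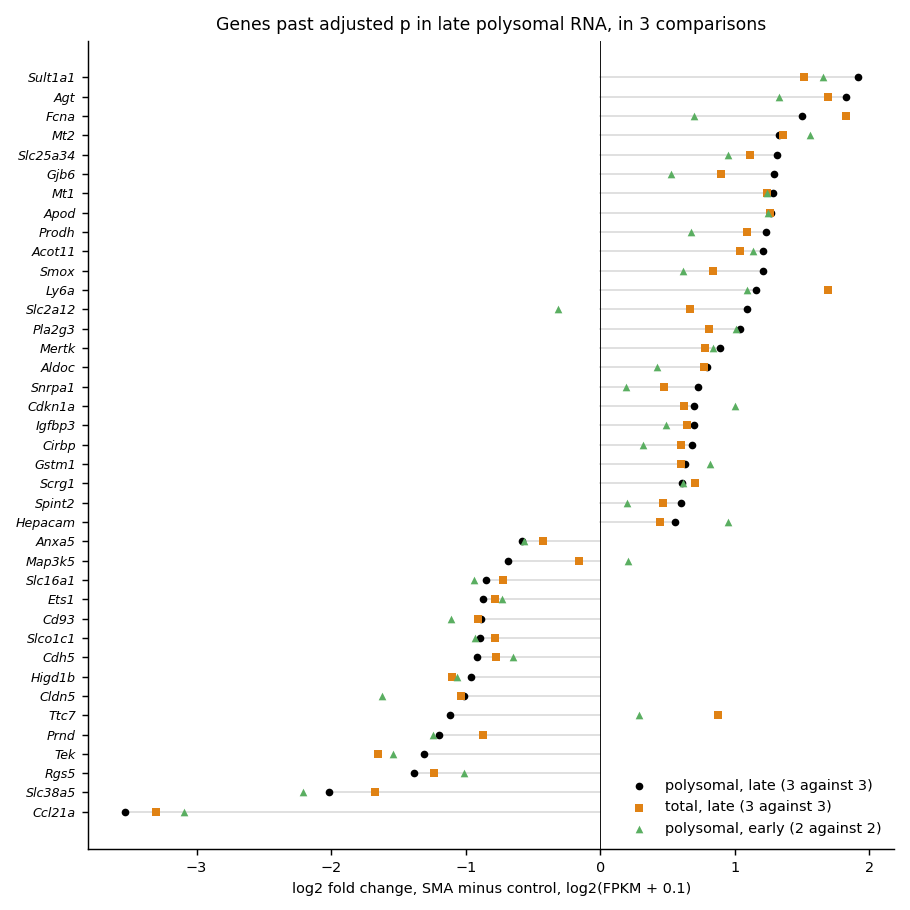
Log2 fold change of SMA minus control on the x axis for named protein-coding genes past adjusted p in late polysomal RNA that were tested in all 3 comparisons, with circles for late polysomal, squares for late total and triangles for early polysomal RNA. Most squares lie near their circle, while Ttc7, Map3k5 and Slc2a12 have a marker on the other side of 0.

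At the early stage, with 2 mice per genotype, polysomal RNA gave a second reading of the same genes in other mice. The summed Y-linked transcripts were at 83.1 and 70.4 FPKM in the early controls and at 0.7 and 63.8 FPKM in the early SMA libraries. The sexes were thus unbalanced at this stage too, in another way than at the late stage. The difference between stages, an interaction of genotype and stage over 10 polysomal libraries, passed p under 0.05 in 1931 of 14216 genes (13.6%) and the adjusted threshold in none by limma. With sex as a covariate 1433 genes passed p under 0.05. Early fold changes were -2.21 for Slc38a5, -1.01 for Rgs5, -1.62 for Cldn5, 1.24 for Mt1, 1.56 for Mt2, 1.24 for Apod and 2.05 for Fam107a, and the interaction test passed for none of these 7. Other leading genes did pass it at the unadjusted threshold, with a larger late change. Among them were Agt (1.33 early and 1.83 late), Smox (0.61 and 1.21) and Gjb6 (0.53 and 1.29). Choroid plexus genes were different. Ttr changed by 0.01 at the early and 0.91 at the late stage (interaction 0.90, adjusted p = 0.314), Folr1 by -0.18 and 0.54, and by that test 4 of the 11 markers tested in both had a more positive and 1 a more negative late change. Ribosomal protein genes had an early median of -0.40 against a late one of -0.04, and 43 of the 81 tested at both stages passed p under 0.05 in the upward direction of the interaction, against 7.47% of all genes (6.11% passed in the downward direction). Respiratory chain genes, with 43 of 77 and medians of -0.36 and 0.01, followed that pattern. Leaving out 1 library moved the number of genes past the threshold of the stage test between 952, without early control replicate 1, and 3475, without early control replicate 2.

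Noncoding and ambiguous entries also carried large values. H2-T3, a nonclassical histocompatibility gene, was at 0.05, 0.10 and 0.18 FPKM in controls and 2.08, 2.02 and 2.26 FPKM in SMA (log2 fold change 3.45 ± 0.28, adjusted p = 0.00415), passed the filter only through its SMA values and has close relatives in its cluster. The noncoding RNAs with the largest rises were the small nuclear RNA gene Gm22973 (2.90) and the pseudogene RP24-209L5.1 (1.70), and Gm12940 (-1.67) and the intronic Gm28119 (-1.36) fell furthest. Small RNAs are shorter than the sequenced fragments, so their FPKM values are imprecise. Sowahc was at 6.20, 8.53 and 0.30 FPKM in controls and 0.28, 0.27 and 0.28 FPKM in SMA and shares its locus with another gene model, so its fold change (-2.89) may come from how reads were divided.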

How the data were processed

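Polysomal and total RNA of control and SMA brains were sequenced by the authors with a stranded total RNA kit, and the deposited FPKM values were computed by the authors with Cufflinks 2.2.1 after alignment with TopHat2 2.0.14 to GRCm38.p4 (versions per the submitters' processing notes; annotation Gencode M6 per the study's methods). FPKM is scaled to the mapped fragments of each library. The table holds no counts, so no count model, interval or detection limit was used, and how Cufflinks divided reads among overlapping genes affects single values.

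Groups and replicate numbers came from the sample labels. Tested were all genes whose average over the 6 libraries reached 1 FPKM, less 373 of these 14632 that had a 0. SMA was compared with control on log2(FPKM + 0.1) with limma 3.58.1 in R 4.3.3 (lmFit, eBayes with trend), 3 brains against 3, with Benjamini-Hochberg adjustment. Interactions with fraction (12 libraries) and stage (10 libraries) were fitted likewise. The deviations of same-numbered polysomal and total libraries correlated at 0.179 to 0.447, so these numbers, which come from the labels, were taken as pairs, and the fit with the number as a block stands beside the fraction result. Scripts were tested on simulated data. Coordinates are those of GENCODE M21, matched by Ensembl ID for 99.5% of tested genes.

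Members and gene lists were chosen with earlier results of these data known. Named genes are those past the adjusted threshold, the 15 largest non-overlapping changes per direction, up to 6 called members per list, the genes with primers in the study and the leading interaction genes. Other genes, and list members past 6, were chosen after their values were seen. Of the genes this rule names, 2 are not reported here. Alternatives were other pseudocounts, filters, scalings and variance models, a replicate block, sex as a covariate, 1 model over the 20 libraries, leaving out each library and p under 0.01. The stage block, a count over protein-coding genes and one without Y-linked genes and Xist were added after seeing the data.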

Additional observations from a re-analysis of the deposited data

Results flagged for a closer look

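The changes of 189 called genes named here were set against those in total RNA and at the early stage, and 16 and 44 interactions passed an unadjusted p under 0.05 by limma. Some of these genes were named because of that test, so the counts are not set against those of all genes. None passed the adjusted threshold, so each is listed as a value only, on the log2 scale.

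Compared with late total RNA, the polysomal change was more negative for Ttc7 (-1.99), Gm28119 (-1.34), Wdr78 (-0.89), Ltbr (-0.76), Ahctf1 (-0.57), Adam17 (-0.54), Map3k5 (-0.53), Egfl7 (-0.40) and Grin2b (-0.37). Ly6a rose less on polysomes than in total RNA (-0.53). More positive on polysomes were Ptges (0.90), Fkbp10 (0.77), Fblim1 (0.71), Tbrg4 (0.52) and Smox (0.37), and Erg fell less on polysomes (0.51).

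Compared with the early stage, the late change was more positive for genes of choroid plexus, ependyma and meninges, namely Ttr (0.90), Folr1 (0.72), Aqp1 (0.73), Mia (0.94), Slc6a13 (0.64), Aldh1a2 (0.43) and Sparc (0.48). Glial and immune genes with a more positive late change were Gjb6 (0.76), Agt (0.50), Ctss (0.64), Fcna (0.81) and Gm5483 (2.25). Stress and amino acid genes followed with Chac1 (0.56), Mthfd2 (0.52), Psat1 (0.37), Herpud1 (0.37), Tsc22d3 (0.39), Cirbp (0.36) and Eif4ebp1 (0.68), and polyamine genes with Smox (0.60), Paox (0.52) and Sat1 (0.37). The splicing genes Snrpa1 (0.53) and Snrpb (0.58) and, from other groups, Slc2a12 (1.40), Hist3h2ba (1.07), Ndufv1 (0.67), Ptges (0.66), Spint2 (0.40) and RP24-209L5.1 (1.70) went the same way.

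The late change was more negative for Sowahc (-4.87), Gm12940 (-2.43), Gm28119 (-2.04), Ttc7 (-1.41), Map3k5 (-0.89), Wdr78 (-0.84) and Ahctf1 (-0.65), for the neuronal Scn8a (-0.98) and Grin2b (-0.71), for Lpl (-0.63), Bgn (-0.57) and Abcc9 (-0.53), and for Rock1 (-0.43) and Pls3 (-0.30). The early groups held 2 mice each.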

How the results depend on the processing

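With 3 brains per genotype, no read counts and unbalanced sexes, single calls near the threshold are uncertain. At p under 0.01 the calls numbered 231 higher and 268 lower, with 53 genes in the fraction and 446 in the stage interaction. A mean of at least 5 FPKM left 499 lower calls and 178 fraction interactions, with fewer genes tested, and no minimum mean gave 521 fraction interactions. Genes past the adjusted threshold numbered 18 with zeros allowed, 21 with sex as a covariate and 101 in the model over all 20 libraries. Leaving out 1 library gave 514 to 1226 higher calls, 536 to 873 lower calls, 8 to 20 genes past the adjusted threshold, 232 to 582 fraction interactions, the highest without both libraries of control replicate 1, and 952 to 3475 stage interactions. The cause of these shifts was not tested. Control and SMA libraries with the same number deviated against each other (correlations of -0.103, -0.109 and -0.125), so the numbers do not pair them. With the replicate block the late comparison had 698 higher and 750 lower calls and 11 genes past the adjusted threshold, and with the block of paired polysomal and total libraries the fraction interaction had 590.

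Of 195 called genes fixed by the naming rule, 125 stayed past p under 0.05 under every alternative that tested them and none changed sign. The 314 lost calls of single genes included at most 41 for the removal of 1 library (control replicate 3), 27 in the model over all 20 libraries, 25 with the replicate block and 24 with sex as a covariate. With equal library medians 821 genes were called higher and 767 lower, and with quantile normalization 804 and 805. Both scalings make the libraries alike, so the median change of all genes could hardly move and does not test the scaling.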

Other observations

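Several further genes past the adjusted threshold were members of no gene list, among them 3 of mitochondria and lipid metabolism that rose. Slc25a34, a mitochondrial carrier, was at 2.19, 2.13 and 2.08 FPKM in controls and 6.23, 4.66 and 5.53 FPKM in SMA (log2 fold change 1.31 ± 0.13, adjusted p = 0.00954). Acot11, a thioesterase that splits fatty acyl-CoA, was at 1.71, 1.89 and 1.47 FPKM in controls and 4.83, 3.48 and 3.88 FPKM in SMA (log2 fold change 1.21 ± 0.16, adjusted p = 0.0367), and the secreted phospholipase Pla2g3 was at 4.80, 3.96 and 3.96 FPKM in controls and 8.74, 8.76 and 8.77 FPKM in SMA (log2 fold change 1.03 ± 0.10, adjusted p = 0.00954). In all 3 genes every SMA library exceeded every control library.

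The glucose transporter Slc2a12 was at 1.89, 2.68 and 2.33 FPKM in controls and 4.51, 5.31 and 5.1 FPKM in SMA (log2 fold change 1.09 ± 0.15, adjusted p = 0.0384). Fcna, a lectin of the complement system made by macrophages, was at 0.97, 0.60 and 0.85 FPKM in controls and 2.74, 2.26 and 2.30 FPKM in SMA (log2 fold change 1.5 ± 0.20, adjusted p = 0.0367). With a control mean under 1 FPKM, Fcna passed the filter only through its SMA values. Spint2, an inhibitor of serine proteases, was at 11.4, 11.6 and 12.4 FPKM in controls and 18.8, 16.2 and 18.9 FPKM in SMA (log2 fold change 0.60 ± 0.09, adjusted p = 0.048). Anxa5, which binds phosphatidylserine, was lower, at 22.8, 21.5 and 20.6 FPKM in controls and 13.8, 14.8 and 14.7 FPKM in SMA (log2 fold change -0.58 ± 0.07, adjusted p = 0.0367), and all of its SMA values lay below the controls.

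Of the largest non-overlapping decreases, 3 more fell outside the groups described. Lypd2 was at 3.69, 2.14 and 2.85 FPKM in controls and 0.77, 1.14 and 1.23 FPKM in SMA (log2 fold change -1.38 ± 0.24, adjusted p = 0.0908). Wdr78, a dynein gene of motile cilia, was at 2.05, 3.39 and 2.38 FPKM in controls and 1.11, 1.15 and 1.22 FPKM in SMA (log2 fold change -1.07 ± 0.19, adjusted p = 0.0971), while its change in total RNA was -0.19. Knstrn, a spindle protein, was at 3.69, 3.50 and 5.47 FPKM in controls and 2.84, 2.62 and 0.93 FPKM in SMA, lowest in SMA replicate 3 (log2 fold change -1.07 ± 0.39, adjusted p = 0.388).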
